A study of Mus musculus with 2 samples.

Results

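The ATR and MDC1 damage signalling genes Atr, Atrip, Topbp1, Mdc1, Brca1, H2afx, Rnf8, Setdb1 and Trp53bp1 were described across the stages of mouse spermatogenesis. They were chosen by symbol, and all 9 were found among the 20476 genes of a table of single-cell transcript counts. The table holds total testicular cells of adult miR-202-/- mice, which lack a microRNA of the gonads, and of adult WT mice, both on the strain C57BL/CJ;ICR, with 1 library per genotype. Testes were dissociated with enzymes, debris was removed by flow cytometry, and the cells were captured in droplets with 3′ chemistry that tags each transcript with a unique molecular identifier (UMI). The number of animals behind each library is not given.

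The table joins both libraries, and each of its 28245 barcodes (single droplets) ends in a mark, 1 or 2. Which mark is which genotype is unknown here, so miR-202-/- and WT mice could not be compared and no value belongs to either. Neither do the marks serve as replicates. Values are given under mark 1 and then mark 2, with exact 95% intervals that cover counting error only, and no test was run.

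In mammalian cells ATR is a kinase that responds to stretches of single-stranded DNA, to which its partner ATRIP brings it, and TOPBP1 switches it on. In male meiosis the same kinase acts on chromosome axes that have not synapsed, above all those of the X and Y, where BRCA1 helps to load it. ATR phosphorylates the histone variant H2AX, and MDC1 binds the phosphorylated form and carries the signal along the chromatin loops. RNF8, SETDB1 and other enzymes then modify that chromatin, and the sex chromosomes are silenced in pachytene in a domain called the XY body. The protein 53BP1, encoded by Trp53bp1, reads the ubiquitin mark that follows RNF8 at DNA breaks.

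Barcodes with at least 6000 UMIs were assigned to 9 germ cell stages by the UMIs of marker genes, none of which is one of the 9 genes described. The undifferentiated spermatogonium held 48 and 51 barcodes under marks 1 and 2, the differentiating spermatogonium 88 and 81, meiotic entry 100 and 81 and leptotene to zygotene 55 and 38. Pachytene held 376 and 387, diplotene together with dividing cells 309 and 259, the early round spermatid 766 and 1251, the later round spermatid 252 and 202 and the elongating spermatid 2624 and 3032. The joint stage of diplotene and dividing cells is called diplotene below. These 10000 barcodes are a subset of the table, in which mark 1 had 158740437 UMIs and mark 2 had 168967776. Of the barcode sequences 73 occurred under both marks.

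The gates were checked against their markers and against the share of X-linked transcripts. Median marker UMIs for leptotene and zygotene, per 10000 UMIs, were 80.5 and 76.6 in that stage, 32.9 and 38.9 in pachytene and 18.8 and 18.5 in diplotene. Meiotic entry already held 66.4 and 64.3, so these neighbouring stages overlap in their markers. X-linked genes took 1.84 and 1.85% of UMIs at meiotic entry, 1.07 and 1.06% in leptotene to zygotene, 0.131 and 0.151% in pachytene and 0.245 and 0.249% in diplotene. Their share was therefore lowest where silencing of the sex chromosomes is known to occur.

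Depth per barcode differed between stages and touches every level below. The median was 8429 and 9434 UMIs at meiotic entry, 8575 and 8397.5 in leptotene to zygotene, 38409.5 and 29877 in pachytene and 24854 and 24284 in diplotene. Levels are therefore given as CPM, the UMIs of a gene divided by all UMIs of the stage and scaled to 1000000, and UMIs per barcode are set beside them where the order of stages changes. Levels from 3′ counts were compared between stages for a gene and not between genes.

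The kinase subunit gene Atr (ENSMUSG00000032409.15, chr9:95857597-95951781 of GRCm38, plus strand) had its lower levels in spermatogonia and spermatids and its higher ones from meiotic entry to pachytene. Atr stood at 96.2 and 69.1 CPM in undifferentiated spermatogonia, 106 and 99.9 in differentiating spermatogonia and 328 and 258 at meiotic entry. Its CPM was highest in leptotene to zygotene, at 367 and 413 (intervals 318 to 421 and 349 to 484), against 295 and 296 in pachytene and 134 and 107 in diplotene. Atr stood at 24.2 and 23.2 CPM in early round, 15.5 and 11.7 in later round and 17.1 and 15.9 in elongating spermatids. Both pachytene values lay between the 2 values of meiotic entry, so these stages could not be ordered. The 3′ end of Atr overlaps the antisense gene Gm16794, and whether strand was used in counting is not given. Gm16794 itself stood at 3.63 and 2.73 CPM in leptotene to zygotene and 1.88 and 1.59 in pachytene.

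Mdc1 (ENSMUSG00000061607.15, chr17:35841515-35859670, plus strand), the reader of phosphorylated H2AX, had a course like that of Atr. It stood at 37.7 and 42.1 CPM in undifferentiated spermatogonia, 40.5 and 54.6 in differentiating spermatogonia and 129 and 120.1 at meiotic entry. Mdc1 then had 201 and 175 CPM in leptotene to zygotene, 139 and 139 in pachytene and 52.6 and 40.01 in diplotene. Its spermatid values were 12.1 and 12.2 CPM in early round, 6.68 and 6.92 in later round and 7.54 and 6.4004 in elongating spermatids. The highest stage was again leptotene to zygotene, and spermatids were the lowest. Across the 9 stages under both marks, 18 points, Atr and Mdc1 had a Pearson correlation of 0.99 on the log2(CPM + 10) scale. Among 7203 genes that reached 50 CPM in a stage, Mdc1 was the gene most like Atr and Atr the gene most like Mdc1. The points share libraries and cells, so the correlation is a description.

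The 250 bases before the RefSeq start of Atr and Mdc1, the most alike of the 9, are shown beside those of Trp53bp1, the gene least like Atr (correlation 0.27). The windows are chr9:95857347-95857596 (plus strand), chr17:35841248-35841497 (plus strand) and chr2:121271408-121271657 (minus strand) of GRCm38.p6, each written 5′ to 3′ towards the start. Capitals mark, on either strand, CCAAT (the NF-Y box), AACNG (the core bound by MYB proteins), TGACGT (a part of the cAMP response element) and GGGCGG (the GC box).
Atr: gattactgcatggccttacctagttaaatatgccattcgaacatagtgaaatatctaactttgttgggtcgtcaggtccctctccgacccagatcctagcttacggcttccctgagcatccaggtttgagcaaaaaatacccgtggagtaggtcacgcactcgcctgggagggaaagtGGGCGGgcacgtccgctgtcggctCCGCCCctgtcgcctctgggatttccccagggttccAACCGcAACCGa
Mdc1: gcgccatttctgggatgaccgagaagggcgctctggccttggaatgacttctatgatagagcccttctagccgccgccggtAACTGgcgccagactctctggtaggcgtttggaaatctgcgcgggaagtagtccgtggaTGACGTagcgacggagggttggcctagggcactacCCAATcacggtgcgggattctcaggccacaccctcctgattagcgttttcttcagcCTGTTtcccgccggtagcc
Trp53bp1: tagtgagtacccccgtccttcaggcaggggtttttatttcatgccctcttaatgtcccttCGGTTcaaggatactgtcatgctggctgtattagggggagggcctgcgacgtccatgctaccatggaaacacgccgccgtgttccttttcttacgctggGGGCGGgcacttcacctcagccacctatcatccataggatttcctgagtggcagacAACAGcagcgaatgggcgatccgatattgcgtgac
Each window holds 2 MYB cores, in Atr at 12 and 6 bases before the start and in Mdc1 at 169 and 19. Atr holds 2 GC boxes and no NF-Y box, Mdc1 an NF-Y box and a cAMP half-site and no GC box, and Trp53bp1 1 GC box. The window of Atr also overlaps an exon of the antisense gene 1700065D16Rik. Promoters were found for 8 of the 9 genes, not for H2afx, and all 8 hold a MYB core, as do 74.2% of 32851 promoters of that length. An NF-Y box is in 5 of 8 against 33.8% of all promoters, a GC box in 5 of 8 against 32.7%, and a cAMP half-site in 3 of 8 against 6.47%. A match is a string of letters and not a measured binding site.

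Atrip (ENSMUSG00000025646.9, chr9:109057933-109074124, minus strand), the binding partner of ATR, rests on far fewer molecules, 21 and 11 UMIs in leptotene to zygotene. Atrip stood at 7.796 and 13.5 CPM in undifferentiated spermatogonia, 16.9 and 6.18 in differentiating spermatogonia and 12.04 and 14.6 at meiotic entry. Its highest levels were 38.1 and 30.1 CPM in leptotene to zygotene (intervals 23.6 to 58.3 and 15.01 to 53.8), with 19.2 and 20.4 in pachytene and 3.303 and 5.48 in diplotene. Atrip values in spermatids were 3.197 and 2.76 CPM in early round, 2.88 and 3.01 in later round and 1.27 and 1.14 in elongating spermatids. Atrip shares its 3′ end with Trex1, an exonuclease gene on the same strand that has no row of its own in the table, so its counts are uncertain.

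Topbp1 (ENSMUSG00000032555.10, chr9:103305215-103350428, plus strand), the activator of ATR, was higher in spermatogonia than in any stage from diplotene on. It stood at 104 and 90.2 CPM in undifferentiated spermatogonia, 149 and 167 in differentiating spermatogonia, 189.7 and 198 at meiotic entry and 239.6 and 257 in leptotene to zygotene. Pachytene had 78.1 and 98.7 CPM and diplotene 10.1 and 7.82. Spermatids had 2.74 and 3.71 CPM in early round, 2.302 and 2.86 in later round and 3.11 and 2.98 in elongating spermatids. Its highest stage mean was 96.2 times its lowest, against 28.6 times for Atr.

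H2afx (ENSMUSG00000049932.3, chr9:44334694-44336077, plus strand), the gene of the histone variant H2AX, was also highest in leptotene to zygotene by summed CPM. H2afx stood at 55.9 and 60.1 CPM in undifferentiated spermatogonia, 99.8 and 90.6 in differentiating spermatogonia and 119 and 123 at meiotic entry. It then had 225 and 287 CPM in leptotene to zygotene, 145 and 188 in pachytene and 81.5 and 82.1 in diplotene. In spermatids it had 24.2 and 26.4 CPM in early round, 10.6 and 11.7 in later round and 10.4 and 11.7 in elongating spermatids. The chemistry captures poly(A) tails, and histone transcripts without a tail are outside it. With every barcode given the same weight, the leptotene to zygotene level of H2afx was 182 and 244 CPM, with 169 and 201 in pachytene. Thinned to 5000 UMIs per barcode it was 171 and 242 CPM in leptotene to zygotene, with 172 and 204 in pachytene. Under mark 1 the higher level of leptotene to zygotene is thus small or absent on these scales.

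Rnf8 (ENSMUSG00000090083.11, chr17:29614790-29644991, plus strand), a ubiquitin ligase that docks on MDC1, had levels of one size up to pachytene. It stood at 92.3 and 61.6 CPM in undifferentiated spermatogonia, 96.9 and 99.9 in differentiating spermatogonia and 77.3 and 92.2 at meiotic entry. In leptotene to zygotene the marks lay apart, at 113 and 46.5 CPM from 62 and 17 UMIs. Pachytene had 67.7 and 84.7 CPM, diplotene 27.9 and 30.8 and the early round spermatid 6.64 and 7.11. The first 5 stages of Rnf8 have no firm order, since the leptotene to zygotene values span those of the other 4. Rnf8 also shares its 3′ end with Gm28043 and Gm28052 on the same strand, neither of which has a row in the table, so its counts are uncertain.

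Setdb1 (ENSMUSG00000015697.14, chr3:95323525-95357202, minus strand), a methyltransferase for lysine 9 of histone H3, was highest at meiotic entry. It stood at 101 and 94.7 CPM in undifferentiated spermatogonia, 70.6 and 61.8 in differentiating spermatogonia, 181 and 155 at meiotic entry and 85.3 and 92.9 in leptotene to zygotene. Pachytene had 59.1 and 55.7 CPM, diplotene 30.6 and 23.8 and the early round spermatid 8.84 and 9.96. The 3′ end of Setdb1 overlaps Cers2 on the opposite strand, and the same doubt on strand holds. Cers2 itself was at 8.03 and 7.28 CPM at meiotic entry and 47.2 and 21.9 in leptotene to zygotene, so the order of these stages for Setdb1 is not that of Cers2.

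Brca1 (ENSMUSG00000017146.12, chr11:101488764-101551955, minus strand), a ubiquitin ligase subunit that in mouse spermatocytes helps to place ATR on unsynapsed axes, was highest in spermatogonia and at meiotic entry. Brca1 stood at 70.2 and 55.6 CPM in undifferentiated spermatogonia, 106 and 78.2 in differentiating spermatogonia and 60.2 and 64.3 at meiotic entry. Leptotene to zygotene had 30.9 and 10.9 CPM from 17 and 4 UMIs, pachytene 5.18 and 4.83 and diplotene 4.82 and 4.08. Spermatid values of Brca1 were 10.6 and 9.09 CPM in early round, 7.71 and 7.97 in later round and 2.399 and 1.63 in elongating spermatids. Pachytene, where Atr and Mdc1 kept most of their highest CPM, was thus among the lowest stages of Brca1.

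The pachytene level of Brca1 lay within the intervals of Sertoli cells, the somatic support cells. Sertoli cells had 7.04 and 9.99 CPM of Brca1, from 6 and 6 UMIs (intervals 2.58 to 15.3 and 3.66 to 21.7). Barcodes with fewer than 5000 UMIs, used as a stand-in for free RNA, had 16.7 and 14.1. Those 11524 barcodes belong to the deposited table, hold at least 3529 UMIs each and may include cells, so the stand-in is an assumption. With each barcode thinned to 5000 UMIs, 2.13% and 2.84% of pachytene barcodes had a Brca1 UMI. Among Sertoli barcodes it was 3.12% and 3.17%, from 3 of 96 and 2 of 63. The unthinned shares were 18.9% and 13.95% in pachytene and 5.21% and 6.35% in Sertoli cells, at median depths of 38409.5 and 29877 and 7535.5 and 8133 UMIs. Sertoli barcodes themselves held 9.56 and 8.12% protamine and transition protein UMIs, so they also carry transcripts of spermatids. With the low-UMI profile subtracted, as described below for prophase, Brca1 stood at 3.46 and 3.29 CPM in pachytene and 2.8998 and 2.49 in diplotene.

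Trp53bp1 (ENSMUSG00000043909.16, chr2:121193281-121271407, minus strand), the gene of 53BP1, was the 1 gene called higher in round spermatids. Trp53bp1 stood at 70.2 and 70.6 CPM in undifferentiated spermatogonia, 53.6 and 59.7 in differentiating spermatogonia and 58.2 and 54.6 at meiotic entry. Leptotene to zygotene had 45.4 and 43.7 CPM, pachytene 22.5 and 27.5 and diplotene 10.2 and 8.52. Early round spermatids had 32.9 and 27.6 CPM, later round spermatids 46.96 and 48.3 and elongating spermatids 5.46 and 5.702. Its values thus form a trough in diplotene, and round spermatids lie above it.

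The same order was seen in the share of barcodes with a Trp53bp1 transcript. Thinned to 5000 UMIs, a Trp53bp1 UMI was found in 6.796% and 6.95% of diplotene barcodes, 13.8% and 11.99% of early round, 22.2% and 19.8% of later round and 2.63% and 2.57% of elongating spermatids. Sertoli barcodes had 8.33% and 6.35%, and low-UMI barcodes held 31.1 and 26.5 CPM, near the early round level and below the later round one. Per barcode the mean was 1.62 and 1.59 UMIs in later round spermatids and 0.369 and 0.282 in diplotene. The 3′ end of Trp53bp1 overlaps Tubgcp4 on the opposite strand, which stood at 24.1 and 23.2 CPM in diplotene and 6.45 and 7.07 in later round spermatids and so had the opposite order.

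**Figure D1:**
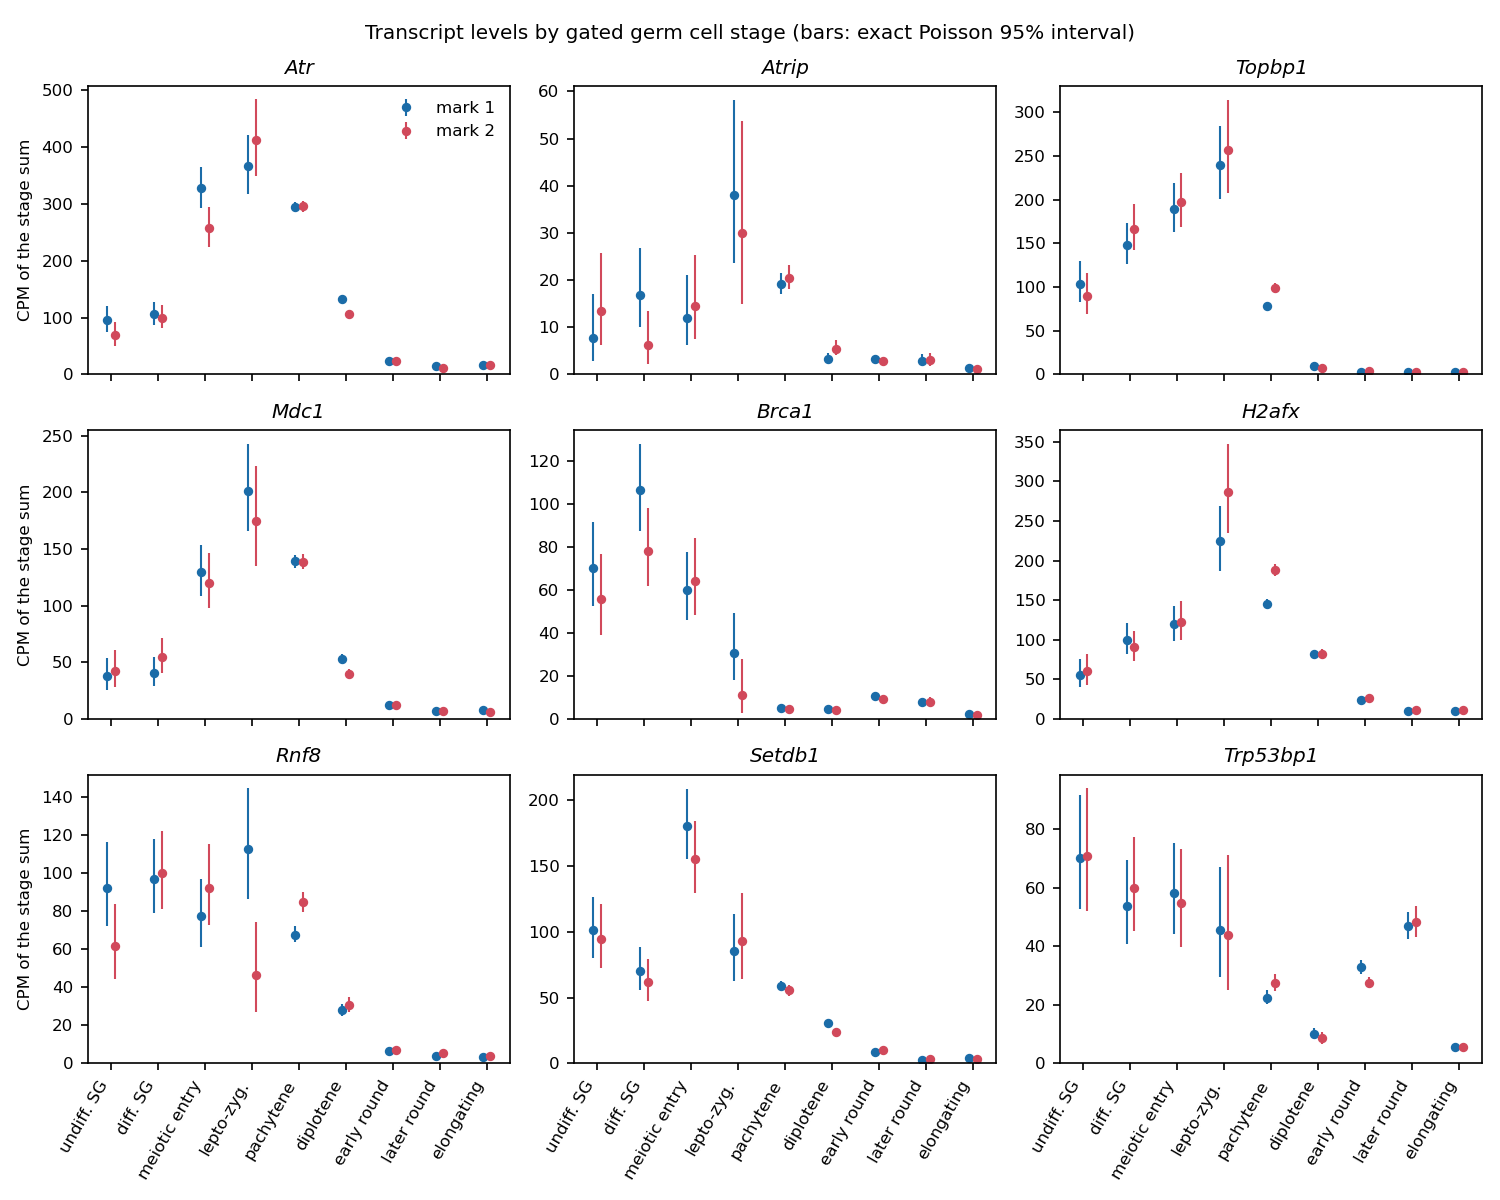
CPM of each of the 9 genes (vertical axis, from 0) in 9 germ cell stages (horizontal axis, from undifferentiated spermatogonia, undiff. SG, to elongating spermatids), with points for marks 1 and 2 and bars for exact Poisson 95% intervals. Atr, Atrip, Topbp1, Mdc1 and H2afx have their highest mean in leptotene to zygotene, Setdb1 at meiotic entry, Brca1 and Rnf8 in differentiating and Trp53bp1 in undifferentiated spermatogonia, and Trp53bp1 is at 46.96 and 48.3 CPM in later round spermatids.

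Each stage was then set against the one before it. The size rule called a gene higher or lower where each mark showed a CPM difference of 1.5-fold or more, in one direction, and the higher stage reached 20 CPM and 20 UMIs in each mark. All 9 genes were measured in every comparison. The same rule was run over all genes other than the gate markers, to give the share of genes tested that was called. That share also counts genes too low in both stages to reach 20 CPM, which could not be called. In diplotene over pachytene 15211 genes were tested, of which 8037 had at least 50 UMIs per mark in both stages. The share among genes at levels like those of the 9 was not computed and may be higher.

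In differentiating over undifferentiated spermatogonia, 1 of the 9 was higher, against a background of 3.85% of genes called higher, and 0 were lower, against 3.16%. That gene was H2afx, at ratios of 1.79 (interval 1.24 to 2.61) and 1.51 (1.03 to 2.25). Its lower bounds are below 1.5, and with stages scaled by the median ratio or by TMM factors 0 genes were called here. At meiotic entry over differentiating spermatogonia 3 were higher, against a background of 4.94%, and 0 were lower, against 4.3%. Atr had ratios of 3.09 (interval 2.48 to 3.86) and 2.59 (2.03 to 3.32). Mdc1 had 3.199 and 2.201 and Setdb1 2.56 and 2.51. The median log2 ratio of the 9 was 0.35, that of all genes tested 0.03. Atr, Mdc1 and Setdb1 were thus higher together, while Topbp1, at ratios of 1.28 and 1.19, did not pass the rule.

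In leptotene to zygotene over meiotic entry H2afx was the 1 gene called higher, against a background of 3.29%, and Brca1 and Setdb1 were the 2 called lower, against 10.9%. H2afx had ratios of 1.88 (interval 1.45 to 2.44) and 2.34 (1.77 to 3.11). Brca1 had 0.513 (interval 0.2804 to 0.8901) and 0.17003 (0.0447 to 0.462), the second from 4 UMIs. Setdb1 had 0.472 and 0.598. Mdc1 (ratios 1.56 and 1.46) and Atr (1.12 and 1.597, the first with an interval of 0.933 to 1.34) had ratios above 1 under both marks without reaching 1.5 under each, and Rnf8 (1.46 and 0.504) lay on either side of 1. The median log2 ratio of the 9 was 0.36, that of all genes tested -0.08 and that of genes with at least 50 UMIs per mark in both stages 0.19. H2afx was not called with a stricter gate, and with TMM factors Setdb1 was not called and Mdc1 was higher. Topbp1, at ratios of 1.26 and 1.299, was short of the rule.

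In pachytene over leptotene to zygotene 0 of the 9 were higher, against a background of 10.5%, and Topbp1 and H2afx were the 2 called lower, against 9.11%. Topbp1 had ratios of 0.326 (interval 0.272 to 0.393) and 0.384 (0.312 to 0.479), and H2afx had 0.644 (interval 0.538 to 0.778) and 0.656 (0.5398 to 0.806). Atr stood at 0.804 and 0.717 and Mdc1 at 0.6902 and 0.792, short of the rule. The median of well measured genes shifted by -0.11, and H2afx loses its call when that shift is taken out, and also with a stricter gate and without possible doublets. The median log2 ratio of the 9 was -0.63, close to the -0.57 of all genes tested. Topbp1 was the 1 gene called lower in pachytene under all 12 settings that gave a value, the reported one included.

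Free RNA bears on the same step. Protamine and transition protein UMIs, which belong to elongating spermatids, made up 2.22 and 2.003% of UMIs in leptotene to zygotene and 0.713 and 0.784% in pachytene. Taken as free RNA with the profile of low-UMI barcodes, they correspond to 40.3% and 36.3% of UMIs in leptotene to zygotene and 12.9% and 14.2% in pachytene. Those barcodes may include cells, and whether their profile is that of free RNA was not tested. With that profile subtracted Atr stood at 549 and 595 CPM in leptotene to zygotene, 326 and 332 in pachytene and 142 and 112 in diplotene, while Mdc1 stood at 307 and 252 CPM in leptotene to zygotene, 154 and 156 in pachytene and 55.2 and 41.5 in diplotene. Atr, Mdc1 and Setdb1 then join Topbp1 and H2afx among the genes called lower in pachytene, which makes 5 of 9. The share of all genes called was not computed with the profile subtracted, so this count has no background beside it.

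In diplotene over pachytene 7 of the 9 were lower, against a background of 11.8% of all genes, and 0 were higher, against 7.76%. Topbp1 had the lowest ratios of these, 0.129 (interval 0.106 to 0.157) and 0.0791 (0.0609 to 0.101). Atr had 0.453 (interval 0.427 to 0.481) and 0.361 (0.335 to 0.388), and Mdc1 had 0.378 (interval 0.345 to 0.414) and 0.289 (0.256 to 0.324). H2afx stood at 0.562 and 0.436, Rnf8 at 0.413 and 0.363, Setdb1 at 0.518 and 0.427 and Trp53bp1 at 0.453 and 0.3096. Atrip had ratios of 0.172 and 0.268 but did not reach 20 CPM under both marks in pachytene, and Brca1 had 0.931 and 0.844 at its low level. The median log2 ratio of the 9 was -1.37, that of all genes tested -0.13.

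In early round spermatids over diplotene Trp53bp1 was the 1 gene called higher, against a background of 10.6%, and 5 were lower, against 12%. Trp53bp1 had ratios of 3.24 (interval 2.66 to 3.97) and 3.24 (2.55 to 4.17). The 5 lower genes were Atr (0.182 and 0.217), Mdc1 (0.231 and 0.305), H2afx (0.298 and 0.322), Rnf8 (0.238 and 0.231) and Setdb1 (0.289 and 0.419). Topbp1 and Atrip were already under 20 CPM, and Brca1, at ratios of 2.21 and 2.23, stayed under 20 CPM in both stages. In later over early round spermatids Atr and H2afx were the 2 called lower, against a background of 7.37%, and 0 were higher, against 6.73%. Trp53bp1 stood at 1.43 (interval 1.26 to 1.61) and 1.75 (1.54 to 1.99), under the rule for mark 1 and over it for mark 2. With median-ratio scaling Atr was not called and Trp53bp1 was higher, as it also was with Leiden clusters. In elongating over later round spermatids Trp53bp1 was the 1 called lower, against a background of 20.6%, at ratios of 0.116 (interval 0.0983 to 0.137) and 0.118 (0.0996 to 0.1399), and 0 were higher, against 4.08%. The median of well measured genes shifted by -0.36, -0.22 and -1.12 over these comparisons, so Trp53bp1 went up against the general drift at the first of them.

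**Figure D2:**
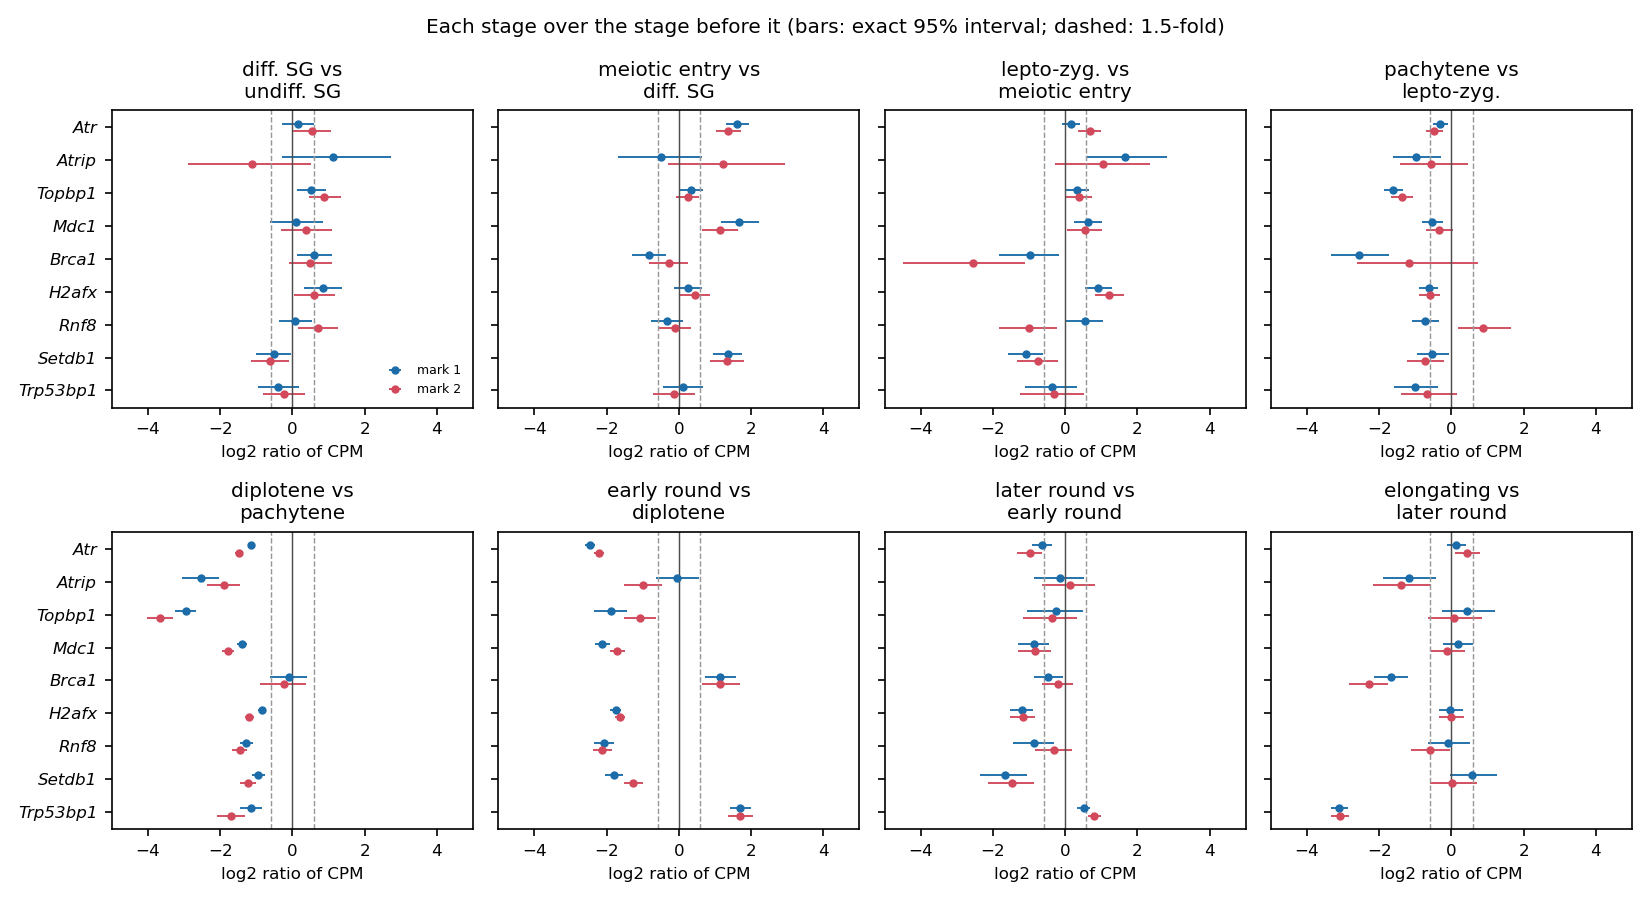
Log2 ratio of CPM (horizontal axis) of each of the 9 genes in each stage over the stage before it, with points for marks 1 and 2, bars for exact 95% intervals and dashed lines at 1.5-fold. In diplotene over pachytene every gene but Brca1 lies left of the dashed line under both marks, from 0.129 and 0.0791 for Topbp1 to 0.562 and 0.436 for H2afx as ratios, while Trp53bp1 alone passes the rule upwards in early round spermatids.

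Molecules per barcode gave another order of stages than shares of the transcriptome. Pachytene barcodes held 12.1 and 9.65 UMIs of Atr on average, against 3.67 and 3.97 in leptotene to zygotene, although the CPM was not higher. Mdc1 had 5.71 and 4.52 UMIs per barcode in pachytene, against 2.02 and 1.68, H2afx 5.96 and 6.14, against 2.25 and 2.76, and Topbp1 3.21 and 3.22, against 2.4 and 2.47. Median total UMIs were higher in pachytene as well (38409.5 and 29877, against 8575 and 8397.5), and its part in the difference was not tested. In diplotene both scales were below pachytene, with 4.84 and 3.53 UMIs of Atr and 0.366 and 0.259 of Topbp1 per barcode.

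**Figure D3:**
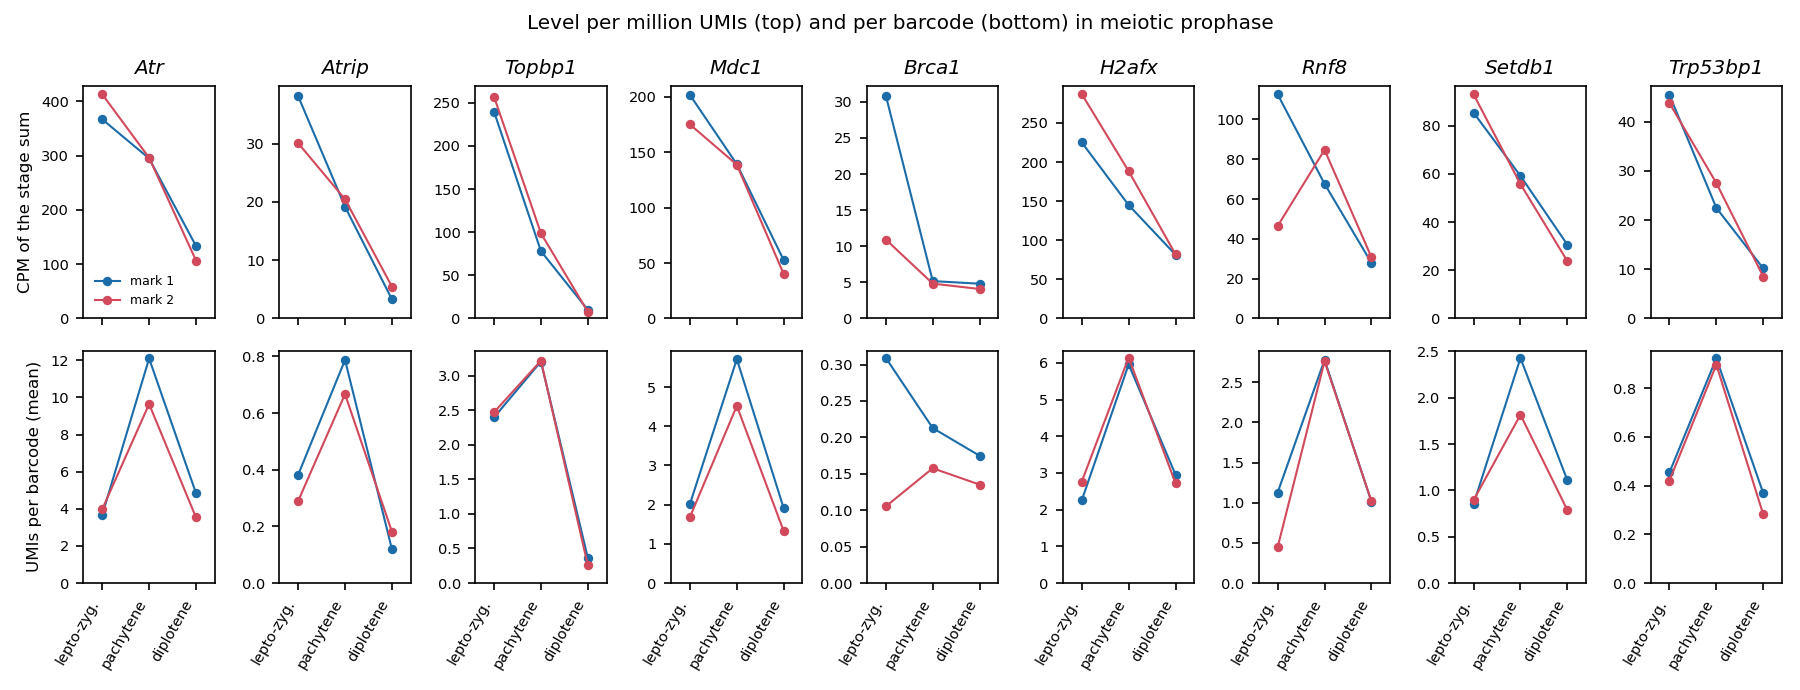
CPM (top row, from 0) and mean UMIs per barcode (bottom row, from 0) of the 9 genes in leptotene to zygotene, pachytene and diplotene (dividing cells included), with lines for marks 1 and 2. For Atr the CPM is highest in leptotene to zygotene (367 and 413) and the UMIs per barcode in pachytene (12.1 and 9.65), and both are lower in diplotene.

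At equal depth the share of barcodes with a transcript showed how widely the genes were found. With each barcode thinned to 5000 UMIs, Atr was found in 30.7% and 38.3% of differentiating spermatogonia, 76% and 72.8% of barcodes at meiotic entry, 80% and 84.2% in leptotene to zygotene, 77.1% and 74.9% in pachytene and 40.8% and 34.7% in diplotene. Sertoli barcodes had 18.8% and 9.52%. Mdc1 was found in 56.4% and 60.5% of leptotene to zygotene barcodes, 51.6% and 45.7% in pachytene and 20.1% and 14.3% in diplotene, with 12.5% and 7.94% in Sertoli cells. Unthinned, 98.1% and 98.2% of pachytene barcodes held Atr and 93.6% and 87.1% held Mdc1, against 27.1% and 28.6% of Sertoli barcodes for Atr and 19.8% and 15.9% for Mdc1. At this depth Atr was thus found in most barcodes from meiotic entry to pachytene.

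Barcodes were also ordered more finely, by the share of diplotene markers among diplotene and leptotene to zygotene markers. They were divided into 8 bins of equal size over 1424 barcodes of leptotene to zygotene, pachytene and diplotene. The diplotene stage was gated together with dividing cells, so the later bins may hold cells past prophase. This order was added after the data had been seen. Atr held its level over bins 1, 2 and 3, with 365 and 346 CPM in bin 1 and 353 and 325 in bin 3, and then had 264 and 279 CPM in bin 4, 213 and 178 in bin 5, 142 and 105 in bin 6 and 117 and 96.6 in bin 8. Topbp1 had lower values from bin to bin early on, with 198 and 212 CPM in bin 1, 140.2 and 146 in bin 2, 107 and 104 in bin 3, 48.9 and 56.8 in bin 4 and 9.33 and 6.86 in bin 6. H2afx had 253 and 318 CPM in bin 1, 111 and 146 in bin 4 and 75.6 and 88.6 in bin 8. All 9 genes were at least 1.5-fold lower in the last bin than in the first under both marks, against a background of 40.3% of all genes tested. With the minimum of 20 CPM and 20 UMIs it was 8, without Brca1, against 23.4% of the same genes tested, those below the minimum included.

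X-linked transcripts had their own course over the same bins. Their share of UMIs was 0.438 and 0.332% in bin 1, 0.161 and 0.1599% in bin 2, 0.113 and 0.145% in bin 4, 0.103 and 0.176% in bin 5 and 0.268 and 0.304% in bin 6. The share in bin 1 was already below the 1.07 and 1.06% of the leptotene to zygotene stage, so these bins do not place its first drop. In bin 2 the share was lower than in bin 1, while Atr held its level. Mdc1 had 216 and 197 CPM in bin 1 and 198 and 176 in bin 2. Brca1 had 14.8 and 18.6 CPM in bin 1 and 11.97 and 4.2997 in bin 2. Where the share was higher again, in bin 6, Topbp1 had 9.33 and 6.86 CPM and Mdc1 55.7 and 43.7. The bins are consecutive groups of cells ordered by their own markers, and no relation between the curves was tested.

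**Figure D4:**
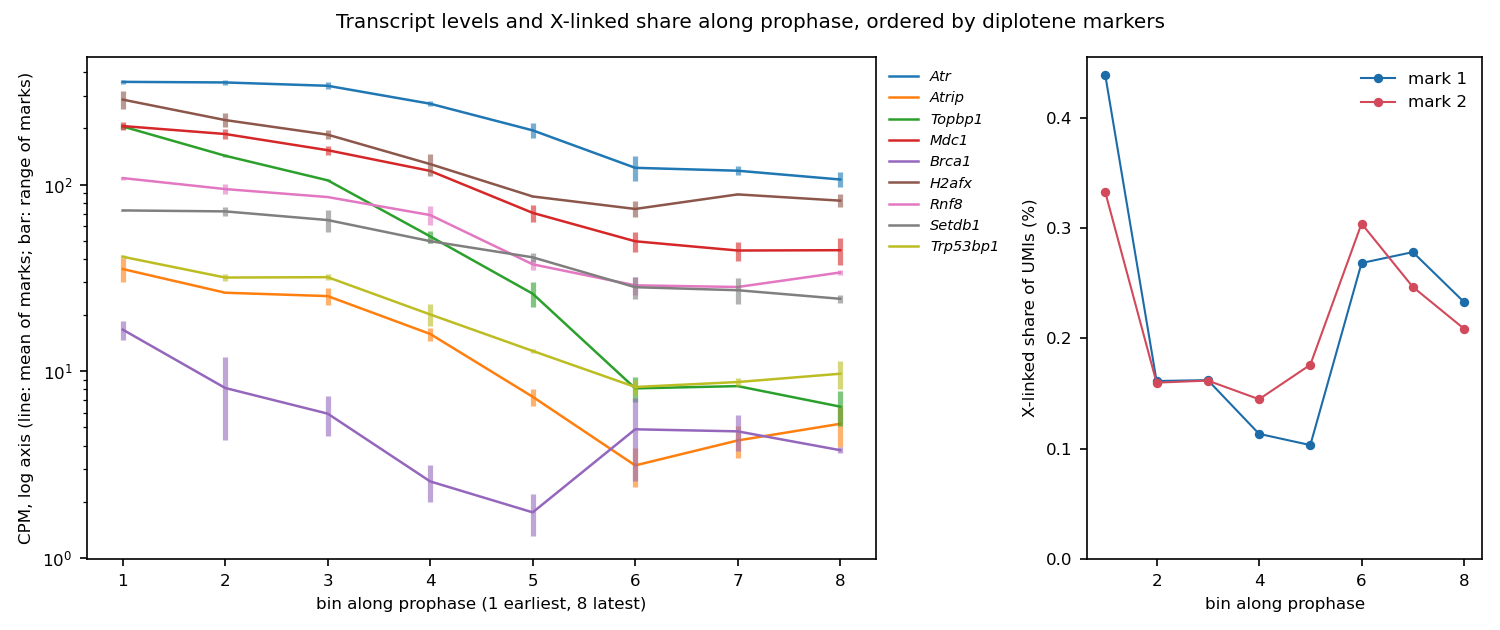
Left, CPM of the 9 genes (log axis) in 8 bins of leptotene to zygotene, pachytene and diplotene barcodes (dividing cells included). Barcodes are ordered by diplotene markers, with lines for the mean and bars for the range of both marks. Right, X-linked share of UMIs in the same bins under marks 1 and 2. Atr stays near 363 and 343 CPM until bin 3, Topbp1 has 198 and 212 CPM in bin 1 and 7.84 and 5.08 in bin 8, and the X-linked share is lowest in bins 2 to 5.

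With leptotene to zygotene and pachytene barcodes alone, ordered by pachytene markers in 4 bins over 856 barcodes, the last bin was at least 1.5-fold lower than the first for 7 genes, against a background of 33.1% of all genes tested. With the minimum of 20 CPM and 20 UMIs it was 6, against 17.5% of the same genes tested, those below the minimum included. With each barcode thinned to 5000 UMIs and no minimum it was 5, and the share of all genes was not computed with thinning. The exceptions among the 9 without a minimum were Atr, at 258 and 253 CPM in the last bin against 356 and 338 in the first, and Rnf8, at 54.2 and 71.9 against 98.97 and 85.98. Topbp1 had 43.6 and 49.5 CPM in the last bin, against 212 and 216 in the first. Mdc1 had 109 and 105, against 235 and 189. Of Atr and Mdc1, the most alike by course, Mdc1 passed 1.5-fold here and Atr did not, and the difference between them was not tested.

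Other genes of the pathway, 80 in 10 lists, were followed by the same rule. In leptotene to zygotene over meiotic entry 3 were higher and 21 lower of 74 measured, and in pachytene over leptotene to zygotene 6 were higher and 14 lower of 76. In diplotene over pachytene 4 were higher and 17 lower of 76. Over all genes tested, 3.29% were higher and 10.9% lower at the first of these steps. At the second they were 10.5% and 9.11%, and at the third 7.76% and 11.8%. The same shares are the background for each list below, and no list was tested against them.

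Of 13 measured genes of ATR activation and its target kinase CHK1, 0 were higher and 6 lower in leptotene to zygotene over meiotic entry, with a median log2 ratio of -0.92, against -0.08 over all genes tested. Clspn, the adaptor that hands CHK1 to ATR, had 30.9 and 40.99 CPM in leptotene to zygotene, against 135 and 178 at meiotic entry. Etaa1, an activator of ATR that acts beside TOPBP1, had 9.08 and 8.199, against 39.1 and 35.2, and Timeless, of the replication fork protection complex, 9.08 and 21.9, against 53.2 and 52.2. These partners of ATR at replication forks were thus lower in the stage in which the CPM of Atr was highest, although Atr itself was not called at this step. In pachytene over leptotene to zygotene 3 of 14 were lower, Tipin (14.1 and 20.1, against 63.5 and 101 CPM), Rpa2 (19.8 and 30.7, against 61.7 and 65.6) and the clamp loader gene Rad17 (61.3 and 67.4, against 182 and 139).

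Among 3 genes of the HORMA axis, which marks unsynapsed chromosomes, Hormad1 was higher in leptotene to zygotene, at 565 and 590.3 CPM, against 199 and 222 at meiotic entry, and lower in pachytene, at 204 and 247. Trip13, the ATPase that takes HORMAD proteins off the axis, was lower in leptotene to zygotene, at 27.2 and 35.5, against 52.2 and 65.5. Of 6 measured genes of ATM and the MRN complex, which act at double-strand breaks, 1 was higher and 3 lower in leptotene to zygotene over meiotic entry. Atm, the sister kinase of Atr, had 7.26 and 8.199 CPM, against 133 and 114, and Rad50 had 92.6 and 90.2, against 182 and 146. Mre11a had 25.4 and 24.6, against 45.2 and 54.6, and the gene higher was Mdm2, which encodes the ligase of p53, at 183 and 189, against 111 and 108, named here after its values were seen. Atm stood at 4.402 and 3.804 CPM in pachytene. Rad50 was also the 1 of 7 called lower in pachytene over leptotene to zygotene, at 46.2 and 45.97, with 0 higher.

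Of 10 measured genes of MDC1, RNF8 and ubiquitin signalling, 1 was higher and 4 lower in pachytene over leptotene to zygotene. Their median log2 ratio was -0.84, against -0.57 over all genes tested and -0.11 over well measured genes. Scml2, an X-linked Polycomb gene of the germ line, had 1.68 and 1.902 CPM in pachytene, against 159.7 and 167. Uimc1, which encodes the ubiquitin reader RAP80, had 22.3 and 29.3, against 107 and 84.7, and Babam1, of the same complex, was the gene higher, at 73.998 and 92.5, against 16.3 and 43.7. Rnf168, the ligase after RNF8, was the 1 of 11 lower in leptotene to zygotene over meiotic entry, at 39.9 and 16.4, against 62.2 and 55.8 CPM, with 0 higher.

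Of the 6 partners of BRCA1, 0 were higher and 2 lower in leptotene to zygotene over meiotic entry. The helicase gene Brip1 had 18.2 and 21.9 CPM, against 58.2 and 58.2, and Rbbp8, whose product starts DNA end resection, 83.5 and 79.3, against 172 and 146. In pachytene over leptotene to zygotene 0 of 6 were called in either direction. Of 5 measured genes that act with 53BP1, 2 were higher and 1 lower in pachytene over leptotene to zygotene. Mad2l2, a subunit of the shieldin complex, had 379.6 and 365 CPM, against 99.8 and 90.2. Nudt16l1, which encodes the 53BP1 inhibitor TIRR, had 43.8 and 51.7, against 7.26 and 19.1, and Dynll1, a light chain that binds 53BP1, had 830.1 and 965, against 1351 and 1577. Nudt16l1 was lower in leptotene to zygotene over meiotic entry, where it had 26.1 and 41.2 CPM.

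Of 11 genes of SETDB1 partners and methylation of histone H3, 0 were higher and 3 lower in leptotene to zygotene over meiotic entry, as Setdb1 itself was. Setdb2 had 10.9 and 10.9 CPM, against 59.2 and 61.9, Ehmt1, which encodes GLP, 19.97 and 21.9, against 57.2 and 60.7, and the X-linked Suv39h1 18.2 and 38.3, against 76.3 and 75.2. In pachytene over leptotene to zygotene 0 of the 11 were called in either direction. Of 6 Fanconi genes 2 were lower in leptotene to zygotene, Fancm (16.3 and 8.199, against 26.1 and 46.1 CPM) and Fancd2 (19.97 and 16.4, against 34.1 and 36.4), and Slx4, a nuclease scaffold, was the 1 higher in pachytene, at 72.4 and 60.8, against 34.5 and 38.3.

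Other H2A variants were called in both directions. In pachytene over leptotene to zygotene 2 of 6 measured were higher and 2 lower. H2afy, which was higher, is the gene of macroH2A, a variant of silenced chromatin, and had 317 and 357 CPM, against 94.4 and 145. H2afv had 82.5 and 109, against 445 and 440.0, after 222 and 278 at meiotic entry. H2al2a had 68.9 and 76.4, against 254 and 210.4, but this spermatid variant reached 1908 and 1977 CPM in elongating spermatids, and spermatid transcripts made up more of the leptotene to zygotene UMIs, as given above. Their part in the result was not tested. Of 8 measured genes in the list of H2AX kinases and phosphatases, which also holds Wrnip1, 0 were higher and 2 lower at each of these steps. Baz1b, which encodes a kinase of an H2AX tyrosine, had 21.7 and 24.2 CPM in pachytene, against 99.8 and 98.4 in leptotene to zygotene, and Ppp4c, a phosphatase subunit, 54.2 and 60.3, against 92.6 and 101. Baz1b was already lower in leptotene to zygotene over meiotic entry, where it had 168 and 153 CPM. Wrnip1, an ATPase of stalled replication forks kept in the same list, had 5.45 and 16.4 CPM in leptotene to zygotene, against 30.1 and 26.7 at meiotic entry.

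Likeness of course over the 18 points, on the log2(CPM + 10) scale, grouped the 9 genes loosely. H2afx was close to Atr (0.98) and Mdc1 (0.97), and Topbp1, Rnf8 and Setdb1 were close to each other (0.93 for Topbp1 and Rnf8, 0.94 for Topbp1 and Setdb1). Brca1 was nearest among the 9 to Trp53bp1 (0.79). After Mdc1, the genes most like Atr were Ube2t (0.98) and Trappc6b (0.98), and after Atr those most like Mdc1 were Bod1l (0.98) and Rabgap1l (0.98).

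For the other genes the 3 most alike were not among the 9. They included Fbxo3 (0.95) and G3bp1 for Atrip, and were Fra10ac1 (0.99), Nup54 and Dennd5a for Topbp1 and Qk (0.99), Lamtor5 and Sesn3 for H2afx. For Rnf8 they included Commd2 (0.98) and Pnn. For Brca1 they were Arpc5 (0.98), Tex13b and Vps13c, and for Setdb1 Epb41l5 (0.99), Eif4enif1 and Kdm2a. For Trp53bp1 they were Ppp4r2 (0.99), Nup43 and Rnf216. Ppp4r2, a regulatory subunit of a phosphatase of H2AX and itself in the lists, had 87.3 and 109.8 CPM in pachytene, 30.2 and 32.4 in diplotene and 181 and 181 in later round spermatids.

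For most genes and stages the intervals under the marks overlapped, which does not by itself place a difference within counting error. Of 81 pairs of gene and stage, 8 had intervals under the marks that did not overlap. In pachytene they were H2afx, Topbp1 and Rnf8, each lower under mark 1, and in diplotene Atr, Mdc1 and Setdb1, each higher under mark 1. The others were Rnf8 in leptotene to zygotene and Trp53bp1 in early round spermatids, both higher under mark 1. Since no mark is tied to a genotype and a mark is 1 library, these differences are given as values.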

How the data were processed

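Total testicular cells of miR-202-/- and WT mice were profiled by single-cell RNA sequencing, and the authors deposited 1 joined table of UMI counts, not normalized, for 20476 genes and 28245 barcodes. Per the submitters' processing notes, Cell Ranger 1.3.1, Seurat 3.2.2 and the build GRCm38 were used, while settings are not given in the sources used here. Barcodes held between 3529 and 244157 UMIs, with medians of 6061 under mark 1 and 5509 under mark 2. Protein sequences and a genotype for each mark were not used here.

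Counts were read and summed in Python 3.11.15 with NumPy 2.4.6, pandas 2.3.3 and SciPy 1.17.1. Barcodes with at least 6000 UMIs were gated by marker UMIs per 10000 UMIs, with thresholds set after the data were seen. Of the gated barcodes, 10 in leptotene to zygotene, 39 in pachytene and 52 in diplotene lay within 10% above their threshold. CPM has exact Poisson 95% intervals and ratios have exact conditional binomial 95% intervals, both for counting error only, since UMIs of 1 library share its preparation. With 1 library per genotype no p-value was computed. The genes described and all lists were chosen with earlier results of these data known. From the lists, the text names 1 to 3 genes each with the largest log2 ratio past the size rule in leptotene to zygotene or pachytene, and for likeness the 3 genes with the highest correlation, of which some are not reported here. Gene positions are from GENCODE M21 and promoters from RefSeq.

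Scrublet, as run in Scanpy 1.11.5, called 0% of barcodes under mark 1 and 1.42% under mark 2. The caller did not work under mark 1, so doublets were kept, and an alternative left out the barcodes called and those above percentile 95 of UMIs in their stage. Alternatives also covered scaling (TMM from edgeR 4.0.16 in R 4.3.3), minimum counts, fold, free RNA, marks alone, gates, clusters and thinning. The counting steps were tested on simulated data.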

Additional observations from a re-analysis of the deposited data

How the results depend on the processing

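Of the 9 genes, the 3 called at meiotic entry (Atr, Mdc1 and Setdb1) were called in every setting run, and between 5 and 8 were lower in diplotene, against the 7 reported. In differentiating over undifferentiated spermatogonia, where 1 was called, 0 were called with median-ratio scaling, with TMM factors and with 2-fold, 3 with free RNA subtracted, 2 under mark 1 alone and 4 under mark 2 alone. In leptotene to zygotene over meiotic entry, where 3 were called, 0 were called with 2-fold and 5 under mark 1 alone and also under mark 2 alone. In pachytene over leptotene to zygotene, where 2 were called, 1 (Topbp1) was called with median-ratio scaling, TMM factors, 2-fold, a stricter gate, a gate from every second marker and without possible doublets. There 4 were called with no minimum, 5 with free RNA subtracted, 5 under mark 1 alone and 4 under mark 2 alone, where Rnf8 was higher. The share of all genes called was not computed for these alternative settings.

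With Leiden clusters in place of gates 6 genes were called at meiotic entry, against 3. With no minimum 4 were called in later round spermatids, against 2, and 3 in elongating spermatids, against 1. With 2-fold 1 was called in later round spermatids. With at least 50 CPM and 50 UMIs 2 were called in early round spermatids, against 6, and 0 in later round and in elongating spermatids. That minimum left 3 pathway genes called in differentiating spermatogonia, against 6, 14 in leptotene to zygotene, against 24, 12 in pachytene, against 20, 12 in diplotene, against 21, 7 in later round spermatids, against 17, and 11 in elongating spermatids, against 21. Counts over fewer genes follow from the higher minimum by construction, and the cause of the other changes was not tested. The other 79 counts stayed within 1.5 times the reported one, which does not mean the same genes. H2afx lost its call in leptotene to zygotene with a stricter gate, Setdb1 lost its call there with TMM factors, and Atr lost its call in later round spermatids with median-ratio scaling. Of single levels 31 stayed within their interval and 5 did not.

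No paired analysis was possible because each genotype has 1 library and no mark is tied to a genotype. A stricter gate left under 50 barcodes in undifferentiated spermatogonia and later round spermatids, the gate from every second marker did so in later round spermatids, and Leiden clusters held no undifferentiated or leptotene to zygotene cluster, so these gave no value. Free RNA was not subtracted in spermatids, which carry the transcripts used to estimate it. Within leptotene to zygotene depth limits Atrip and Brca1 most, at 11 and 4 UMIs under mark 2.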
